A study of Mus musculus with 8 samples.

Results

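The genes described here encode the cell-surface receptors for TGF-β and activin, the co-receptors endoglin and betaglycan, and the inhibin β subunits that build the activins. They were taken by symbol from the deposited count table, where all 10 of 10 symbols (Tgfbr1, Tgfbr2, Tgfbr3, Eng, Acvrl1, Acvr1b, Acvr2a, Acvr2b, Inhba and Inhbb) each matched a single gene among 41128. RNA was sequenced from haemogenic endothelium, the endothelium from which early blood cells emerge, derived in culture from mouse embryonic stem (ES) cells, strain C57BL/6. The study compared loss of the histone deacetylase HDAC1 or HDAC2 during the endothelial-to-haematopoietic transition. A first ES line was of genotype Hdac1lox/lox and a second of genotype Hdac2lox/lox, called the Hdac1 line and the Hdac2 line below. Each was labelled as given ethanol (EtOH), or 4-hydroxytamoxifen (4OHT), a ligand commonly used to activate tamoxifen-dependent Cre recombinase, and each of the 4 groups held 2 libraries. Cells of the 2 lines with EtOH carry the lox sites as well, so every group has them. The labels do not name the Cre transgene, the time of treatment or the number of clones, and they do not say whether replicates were separate cultures, so p-values measure only the spread between these libraries, which may be technical.

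TGF-β and activin signal through pairs of membrane serine/threonine kinases. A type II receptor binds the ligand and phosphorylates a type I receptor, which then phosphorylates Smad transcription factors. Tgfbr2 is the type II receptor of TGF-β, and Acvr2a and Acvr2b are those of the activins. Among the type I receptors, Tgfbr1 (ALK5) and Acvr1b (ALK4) act on Smad2 and Smad3, while Acvrl1 (ALK1), an endothelial receptor of BMP9 and BMP10, acts on Smad1 and Smad5. Endoglin (Eng) is an endothelial co-receptor that works with ALK1, and betaglycan (Tgfbr3) presents TGF-β and inhibin. In endothelium this pathway is known for its part in vessel remodelling, in the transition to mesenchyme and in the emergence of blood cells.

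Total counts ran from 10215792 to 19552380 per library, and levels are given as CPM, the counts scaled to library size with TMM factors. A count of 3, the limit used for a gene not detected, corresponded to 0.15 to 0.287 CPM. The labels could not be checked on the targeted genes, since the table gives counts per gene and none per exon. Hdac2 stood at 165 and 151 CPM in the EtOH libraries of the Hdac2 line and at 149 and 149 CPM in its 4OHT libraries. Hdac1 read 5.78 and 5.60 CPM with EtOH in the Hdac1 line, and 6.99 and 7.12 CPM with 4OHT. It was low in the Hdac2 line as well, with means of 7.31 CPM with EtOH and 4.56 CPM with 4OHT. Why neither gene's count was near 0 in the 4OHT libraries of its line was not tested. The groups below are therefore named as labelled. Endothelial markers were abundant in every library (Cdh5, vascular endothelial cadherin, at 745 to 3030 CPM), Runx1, the factor that marks haemogenic endothelium, stood at 65.8 to 256 CPM, and 6 neuronal markers summed to 28.0 to 82.7 CPM, with Tubb3 at 26.2 to 80.5 CPM and Dcx at 0 in all 8. In the Hdac1 line the replicates stood apart across the label: the summed level of 9 erythroid markers was 1112 and 477 CPM with EtOH and 304 and 588 CPM with 4OHT. Across 14179 genes, the deviations of same-numbered libraries from their group means correlated at -0.76 in the Hdac1 line and at 0.33 in the Hdac2 line, given as a description. In the Hdac2 line, the Y-linked gene Ddx3y had 4.58 CPM in EtOH replicate 2 and 0.324 to 0.889 CPM in the other 3 libraries, against 25.8 to 45.7 CPM in the Hdac1 line.

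RefSeq promoter windows were available for 8 of the 10 genes (the others are Acvrl1 and Tgfbr3), and the 250 bases before the start of 4 of them are shown because they set 3 genes whose counts rose with 4OHT in the Hdac2 line (Eng, Tgfbr2 and Inhba) beside Tgfbr1, which did not pass the test. The build is GRCm38.p6, sequences run 5′ to 3′ on the gene's strand, and capitals mark matches on either strand to AGGAAG (the core bound by ETS factors; its reverse is CTTCCT), to CAGACA (a Smad box; reverse TGTCTG) and to GGGCGG (an SP1 box; reverse CCGCCC).
Eng promoter, chr2:32646345-32646594, plus strand: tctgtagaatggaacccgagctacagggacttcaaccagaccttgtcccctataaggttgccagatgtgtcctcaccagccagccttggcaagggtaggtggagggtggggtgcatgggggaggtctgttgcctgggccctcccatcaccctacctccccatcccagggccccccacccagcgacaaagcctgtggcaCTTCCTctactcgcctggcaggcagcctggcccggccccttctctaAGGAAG
Tgfbr2 promoter, chr9:116175364-116175613, minus strand: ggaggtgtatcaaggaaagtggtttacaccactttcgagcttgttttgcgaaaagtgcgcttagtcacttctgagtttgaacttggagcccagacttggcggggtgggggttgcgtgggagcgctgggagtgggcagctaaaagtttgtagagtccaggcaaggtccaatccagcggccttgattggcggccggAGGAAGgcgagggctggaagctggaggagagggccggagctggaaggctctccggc
Inhba promoter, chr13:16011601-16011850, plus strand: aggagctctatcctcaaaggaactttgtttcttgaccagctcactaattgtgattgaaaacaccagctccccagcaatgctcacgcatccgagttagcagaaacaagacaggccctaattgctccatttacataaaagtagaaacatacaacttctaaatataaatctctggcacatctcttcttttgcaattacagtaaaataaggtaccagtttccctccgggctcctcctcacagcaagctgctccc
Tgfbr1 promoter, chr4:47352972-47353221, plus strand: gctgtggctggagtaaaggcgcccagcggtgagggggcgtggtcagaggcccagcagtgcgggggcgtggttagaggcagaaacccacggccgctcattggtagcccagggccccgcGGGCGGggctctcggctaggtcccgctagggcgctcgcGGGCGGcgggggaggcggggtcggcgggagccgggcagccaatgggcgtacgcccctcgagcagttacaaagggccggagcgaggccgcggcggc
The ETS letters occurred 2 times in the Eng window, 52 and 6 bases before the start, and 1 time in the Tgfbr2 window, 56 bases before it. They were in none of the other first windows, those of Tgfbr1, Acvr1b, Acvr2a, Acvr2b, Inhba and Inhbb, and they occur in 29.5% of 32851 mouse promoter windows of this length. The SP1 letters, present in 32.7% of all windows, were in none of the Eng, Tgfbr2 and Inhba windows. They occurred 2 times in Tgfbr1, 2 times in Acvr2a, 3 times in Acvr2b and 1 time in Inhbb. Acvr1b, which also passed as higher with 4OHT in the Hdac2 line, held 4 matches. Bases G and C made up 62.4% of the Eng window, 58.4% of Tgfbr2, 43.2% of Inhba and 78.8% of Acvr1b. In Tgfbr1 they made up 74.8%, and the median over all windows was 52.4%. Inhba also held TATAAA (reverse TTTATA), 91 bases before its start, which 12.4% of all windows hold. A second annotated Tgfbr1 start, further into the gene, had 1 match to the ETS letters and the only match to the Smad letters (17.1% of all windows). On either strand, the windows held no match to AGATAA, bound by factors of the Gata family. They also held none to TGTGGT, bound by the Runx family, and none to TGACGT, the core of the cyclic AMP response element. These matches describe the printed letters and were not tested as binding sites.

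Per length, Eng was the most abundant of the 10 genes. Its mean over the 8 libraries was 123 CPM per kilobase of merged exons, followed by Acvrl1 at 47.0, Acvr1b at 30.4, Tgfbr1 at 22.8 and Tgfbr2 at 17.7 CPM per kilobase. Tgfbr3 stood at 7.49, Acvr2a at 4.69, Acvr2b at 1.39, Inhba at 0.267 and Inhbb at 0.0181 CPM per kilobase. Each gene lay above the next in that order in all 8 libraries, except that Acvrl1 exceeded Acvr1b in 6, Acvr1b exceeded Tgfbr1 in 7 and Tgfbr1 exceeded Tgfbr2 in 6. The middle of the order, from Acvrl1 to Tgfbr2, was therefore not fixed across libraries, while Eng led in every one. The TGF-β type II receptor was thus present per length at a higher level than either activin type II receptor in all 8 libraries.

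**Figure D1:**
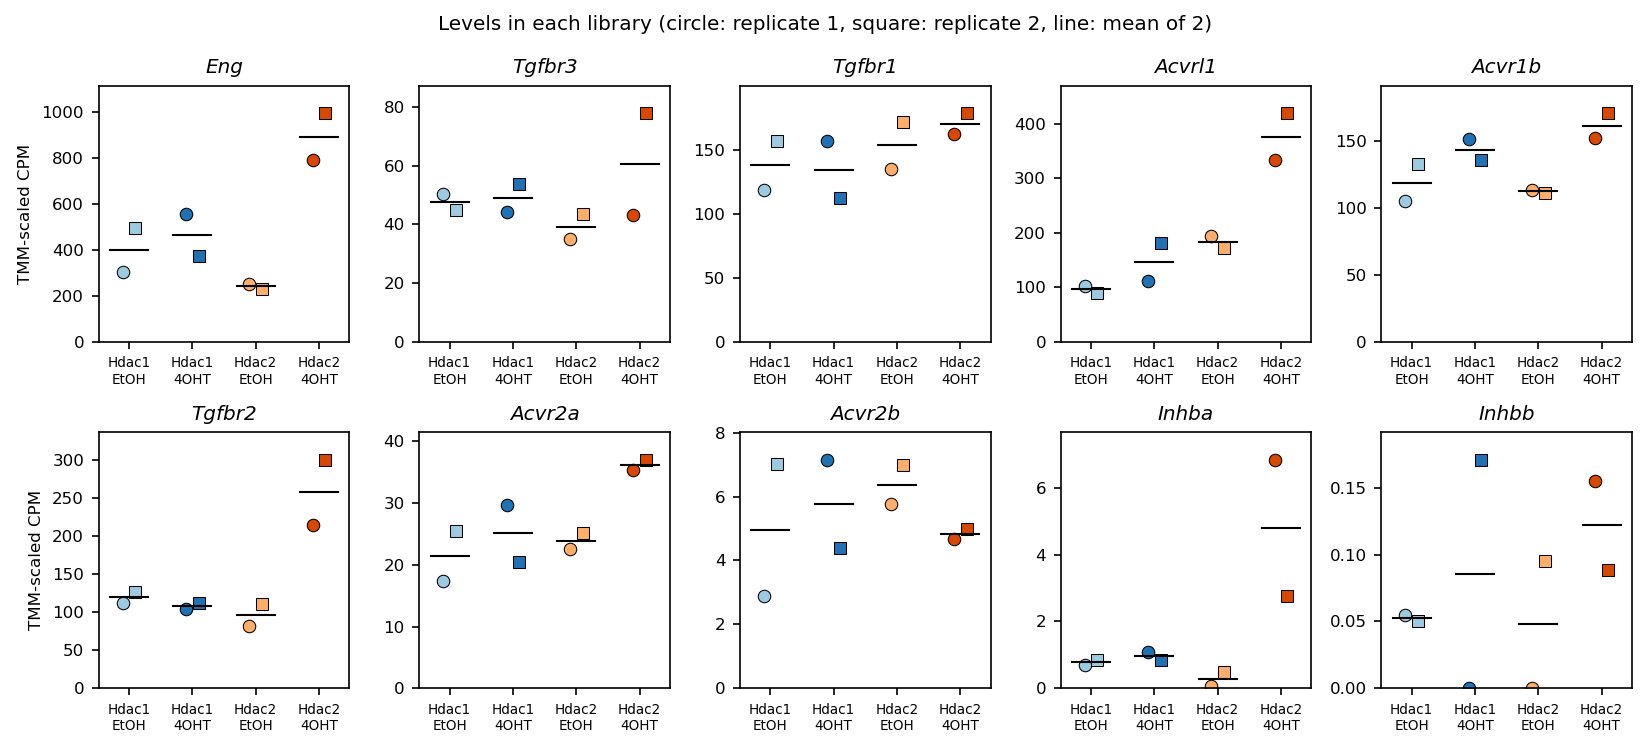
Levels of the 10 genes in each of the 8 libraries, as TMM-scaled CPM on an axis of its own for each gene that starts at 0; circles are replicate 1, squares replicate 2 and lines the mean of 2. Eng, Tgfbr2, Acvrl1, Acvr1b, Acvr2a and Inhba have their 2 highest libraries in the Hdac2 line with 4OHT, and Inhbb never exceeds 0.171 CPM.

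In the Hdac2 line, 5 of the 9 genes with enough counts to test rose with 4OHT and 0 fell. These were Inhba, Eng, Tgfbr2, Acvrl1 and Acvr1b (edgeR's quasi-likelihood test, Benjamini-Hochberg adjusted p under 0.05 over 14179 genes). In the same comparison 36.1% of all genes passed, 18.9% as higher and 17.2% as lower. The median log2 fold change was 0.62 over the 9 genes and -0.02 over all genes tested. The 4OHT libraries lay above both EtOH libraries for 6 of the 9 (38.6% of all genes did) and below them for Acvr2b (39.7%). Each library was made from the RNA of a whole sample, so in these results a change in the number of cells of a type and a change in RNA per cell cannot be told apart.

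Markers of several cell types differed between the same libraries. In the Hdac2 line, 7 of 12 endothelial markers rose with 4OHT and 0 fell, and their summed level went from 3243 and 3396 CPM to 6719 and 8828 CPM. Of 10 markers of haemogenic endothelium and early blood 1 rose and 5 fell (1088 and 1156 CPM to 457 and 497 CPM), and of 9 erythroid markers 7 fell (1914 and 1891 CPM to 475 and 298 CPM). Of 10 smooth muscle and mesenchyme markers, which include the actin Acta2, 5 rose (2078 and 1461 CPM to 6288 and 4189 CPM). At low levels, 4 of 5 macrophage markers rose (8.88 to 17.4 CPM summed with EtOH, 43.2 to 53.5 CPM with 4OHT), as did 2 of 4 tested cardiomyocyte markers (3.63 to 6.35 and 19.3 to 23.3 CPM), with the cardiac gene Actn2 at 0 in all 4 libraries. Of 6 visceral endoderm markers, 2 of the 3 tested, Foxa2 and Sox7, rose (85.8 and 58.7 CPM summed with EtOH, 135 and 148 CPM with 4OHT). The sum was mostly Sox7, which endothelium also expresses, at 84.8 and 58.3 CPM with EtOH and 129 and 143 CPM with 4OHT, and Hnf4a was at or below 0.0648 CPM. Of 6 pluripotency markers 1 of the 2 tested fell (3.05 to 4.11 CPM summed with EtOH, 1.01 to 1.69 CPM with 4OHT), and 0 of 2 tested neuronal markers passed. In the Hdac1 line 0 markers of any list passed, where 0 of all 14179 genes did. Some sums still differed there without overlap. Smooth muscle and mesenchyme markers summed to 1668 and 1560 CPM with EtOH and to 2536 and 2231 CPM with 4OHT. Those of haemogenic endothelium and early blood summed to 1249 and 1069 CPM with EtOH and to 772 and 939.5 CPM with 4OHT. The visceral endoderm sum was also higher and the pluripotency sum lower, while the sums of the other lists overlapped. The part of these shifts in the receptor results was not tested.

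Tgfbr2, the receptor that binds TGF-β itself, lies on the minus strand of chromosome 9, from 116087698 to 116175363 in the coordinates of the deposited table (mm10). In the Hdac2 line it stood at 81.7 and 111 CPM with EtOH and at 214 and 300.0 CPM with 4OHT. Both 4OHT libraries were higher than all 6 others, since the Hdac1 line held 113 and 126 CPM with EtOH and 104 and 112 CPM with 4OHT. Its level was 2.67-fold higher with 4OHT in the Hdac2 line (log2 fold change 1.42 ± 0.22 SE, 95% interval 0.90 to 1.93, adjusted p = 0.00868).

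The activin type II receptors did not pass the test. Acvr2a stood at 22.6 and 25.2 CPM with EtOH and at 35.4 and 37.0 CPM with 4OHT in the Hdac2 line (log2 fold change 0.60 ± 0.25 SE, 95% interval 0.02 to 1.18, adjusted p = 0.0924). Both 4OHT libraries were the highest of the 8. With only the 4 libraries of the Hdac2 line fitted, Acvr2a passed at an adjusted p of 0.011, as did 7272 of 13606 genes. Orc4, a gene on the opposite strand, shares 446 exon bases with Acvr2a and had 141% of its counts, so the assignment of reads between them depends on a strand setting that no label or file header states. Acvr2b, the scarcer of the pair, stood at 5.77 and 6.97 CPM with EtOH and at 4.66 and 4.98 CPM with 4OHT. Its 4OHT libraries were the lower ones, with a log2 fold change of -0.40 ± 0.44 SE (95% interval -1.42 to 0.62, adjusted p = 0.49).

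Tgfbr2 thus made up more of the type II receptor counts per length in the 4OHT libraries. Its share of the summed CPM per kilobase of the 3 genes was 64.7% and 68.6% with EtOH and 77.9% and 82.5% with 4OHT in the Hdac2 line. Acvr2a went from 24.1% ± 2.39 to 16.6% ± 2.75 (SD, n = 2) and Acvr2b from 9.24% ± 0.387 to 3.19% ± 0.478. The groups did not overlap for any of the 3, and 2 libraries against 2 cannot give an exact two-sided permutation p below 0.333, the value found. In the Hdac1 line the Tgfbr2 share was 78.4% and 71.1% with EtOH and 64.4% and 74.3% with 4OHT, and the groups overlapped.

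Acvrl1 and Acvr1b are neighbours on chromosome 15, at 101128522 to 101145336 and 101174067 to 101213679 on the plus strand, and lie 28730 bases apart. Acvrl1, the ALK1 receptor, stood at 194 and 173 CPM with EtOH and at 333 and 419 CPM with 4OHT in the Hdac2 line. Its 4OHT libraries were the 2 highest of all 8, and the level was 2.05-fold higher (log2 fold change 1.04 ± 0.25 SE, 95% interval 0.46 to 1.61, adjusted p = 0.0197). Acvr1b, the activin receptor ALK4, stood at 114 and 111 CPM with EtOH and at 152 and 171 CPM with 4OHT. The groups did not overlap, but the difference was the smallest of those that passed, at 1.44-fold (log2 fold change 0.52 ± 0.17 SE, adjusted p = 0.0447). That call was lost with upper quartile scaling (log2 fold change 0.39), without scaling beyond library size (0.40) and without a filter on low counts (0.52). It was also lost when either library of the Hdac1 line with 4OHT was left out (adjusted p = 0.0641 and 0.0602).

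Tgfbr1, the ALK5 receptor that TGF-β uses to reach Smad2 and Smad3, lies on chromosome 4 from 47353222 to 47414931. It stood at 135 and 172 CPM with EtOH and at 162 and 178 CPM with 4OHT in the Hdac2 line. The groups overlapped, with a log2 fold change of 0.15 ± 0.23 SE and a 95% interval from -0.38 to 0.68 (adjusted p = 0.616). Of the type I receptor CPM per kilobase, Acvrl1 took 49.5% and 44.0% with EtOH and 56.8% and 59.8% with 4OHT in the Hdac2 line. Tgfbr1 took 22.5% and 28.6% with EtOH and 18.1% and 16.6% with 4OHT, and Acvr1b 27.7% ± 0.478 and 24.3% ± 1.09 (SD, n = 2). None of these shares overlapped between EtOH and 4OHT (exact two-sided permutation p = 0.333, the smallest possible). In the Hdac1 line Acvrl1 took 36.5% and 28.1% with EtOH and 30.9% and 46.9% with 4OHT, which overlapped.

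**Figure D2:**
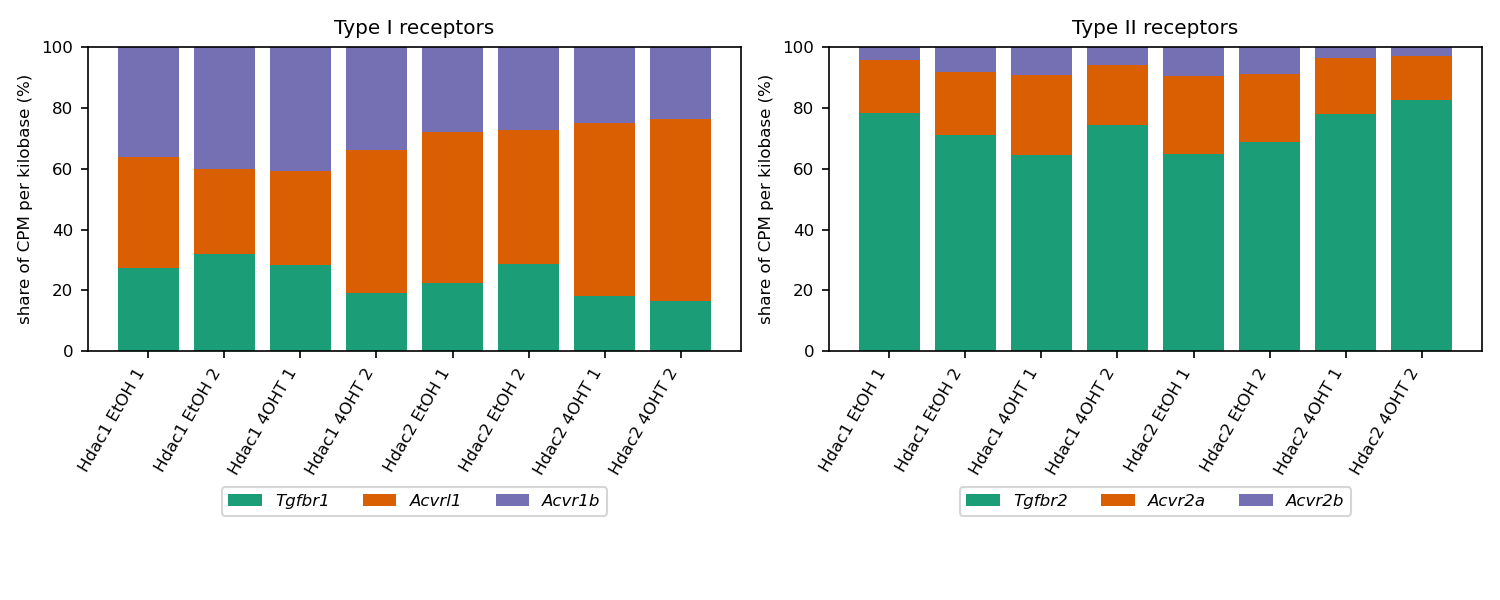
Share of each gene in the summed CPM per kilobase of the type I receptors Tgfbr1, Acvrl1 and Acvr1b (left) and of the type II receptors Tgfbr2, Acvr2a and Acvr2b (right), 1 bar per library, numbers naming replicates. In the 2 rightmost bars, the Hdac2 line with 4OHT, Acvrl1 takes 56.8% and 59.8% and Tgfbr2 takes 77.9% and 82.5%.

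Eng differed most of the receptor genes in CPM per kilobase, at 59.6 ± 4.07 with EtOH and 220.2 ± 35.2 with 4OHT in the Hdac2 line (SD, n = 2). It lies on the plus strand of chromosome 2, from 32646595 to 32682669, and stood at 253 and 229.7 CPM with EtOH and at 790.4 and 992 CPM with 4OHT in the Hdac2 line. The 4OHT libraries were the 2 highest of the 8 and the EtOH libraries the 2 lowest. The Hdac1 line lay between, at 304 and 494 CPM with EtOH and at 555 and 371 CPM with 4OHT. Eng was 3.69-fold higher with 4OHT in the Hdac2 line (log2 fold change 1.88 ± 0.29 SE, 95% interval 1.20 to 2.57, adjusted p = 0.00868). Fpgs, on the opposite strand, shares 61 exon bases with Eng and had 13.0% of its counts. It stood at 82.4 and 86.9 CPM with EtOH and at 43.5 and 43.6 CPM with 4OHT in that line, and so was low where Eng was high. Ak1, on the same strand, shares no exon bases with it.

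Betaglycan behaved less evenly. Tgfbr3, on the minus strand of chromosome 5 from 107106570 to 107289629, stood at 35.0 and 43.5 CPM with EtOH and at 43.1 and 77.8 CPM with 4OHT in the Hdac2 line. Only replicate 2 with 4OHT was above the EtOH libraries, and the test was not passed (log2 fold change 0.62 ± 0.28 SE, 95% interval -0.02 to 1.27, adjusted p = 0.111). Of the co-receptor CPM per kilobase, Eng took 92.1% and 89.5% with EtOH and 96.7% and 95.4% with 4OHT.

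Among the ligand subunits, Inhba encodes the β A subunit of activin A and Inhbb the β B subunit of activin B. Inhba, on chromosome 13 from 16011851 to 16027211, had 1 and 5 counts in the EtOH libraries of the Hdac2 line and 88 and 31 counts in the 4OHT libraries. In CPM these were 0.0648 and 0.478 against 6.83 and 2.75, while the Hdac1 line held 0.709 to 1.10 CPM. Summed over replicates and scaled for depth, the ratio was 21.3 with a 95% interval of 9.49 to 59.1 from counting error alone (119 against 6 counts). Reads amplified by PCR and lacking molecular identifiers do not each stand for a separate molecule, which this interval leaves out. The fitted log2 fold change was 4.27 ± 0.77 SE (95% interval 2.48 to 6.06, adjusted p = 0.011). Per length, Inhba was the scarcest of the genes that passed. Inhbb had 0 to 3 counts in each of the 8 libraries, at or below the limit for detection, so it was not tested and no fold was computed.

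Leaving out 1 library of the Hdac2 line at a time changed the number of these calls. Of the 9 genes, 0 passed without EtOH replicate 1, 0 without EtOH replicate 2, 2 (Eng and Tgfbr2) without 4OHT replicate 1 and 0 without 4OHT replicate 2. Over all genes the counts were 116, 0, 826 and 91 against 5113 with all libraries, with the spread of the single library left in a group taken from the other groups. The fitted values moved less: log2 fold changes ran from 1.71 to 2.04 for Eng, from 1.16 to 1.66 for Tgfbr2, from 0.86 to 1.20 for Acvrl1, from 0.44 to 0.61 for Acvr1b and from 3.31 to 6.05 for Inhba. Adjusted p in those fits was 0.0441 to 0.0764 for Eng, 0.0376 to 0.0741 for Tgfbr2, 0.0613 to 0.122 for Acvrl1, 0.110 to 0.215 for Acvr1b and 0.0558 to 0.0741 for Inhba.

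In the Hdac1 line 0 of the 9 genes passed, with 0% of all 14179 genes passing. At an unadjusted p under 0.05 there was 1, Acvrl1, against 6.68% of all genes, and DESeq2 called 32 genes of the whole table, none of them among the 9. Acvrl1 stood at 103 and 90.3 CPM with EtOH and at 111 and 181 CPM with 4OHT. Its 4OHT libraries were both higher, replicate 2 by far the more, at a fitted log2 change of 0.60 ± 0.25 SE (unadjusted p = 0.0435 and adjusted p = 0.733 by edgeR's quasi-likelihood test). The other 8 genes had log2 fold changes from -0.15 for Tgfbr2 to 0.31 for Inhba. The 95% intervals of Acvrl1, Acvr2b and Inhba reach above a log2 fold change of 1, so this comparison does not show that the genes stayed level: that of Tgfbr2 ran from -0.65 to 0.36 and that of Eng from -0.44 to 0.87. The 4OHT libraries were both higher for Acvrl1, Acvr1b and Inhba (15.8% of all genes) and both lower for Tgfbr2 (15.4%).

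Within the Hdac1 line, several of the genes differed more between the libraries of a label than between the labels, and not by replicate number. Eng, Tgfbr1, Acvr2a and Acvr2b had their 2 highest levels of that line in EtOH replicate 2 and 4OHT replicate 1, as did 28.4% of all genes tested. Tgfbr1 read 119 and 157 CPM with EtOH and 157 and 112 CPM with 4OHT. Acvr2a read 17.3 and 25.5 CPM with EtOH and 29.7 and 20.5 CPM with 4OHT, and Acvr2b had 53 and 140 counts with EtOH and 91 and 77 counts with 4OHT. The same 2 libraries had the lower erythroid sums given above (477 and 304 CPM) and the higher sums of 12 endothelial markers, 5750 and 6358 CPM against 3868 and 4821 CPM. The part of these differences in the result for the Hdac1 line was not tested.

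**Figure D3:**
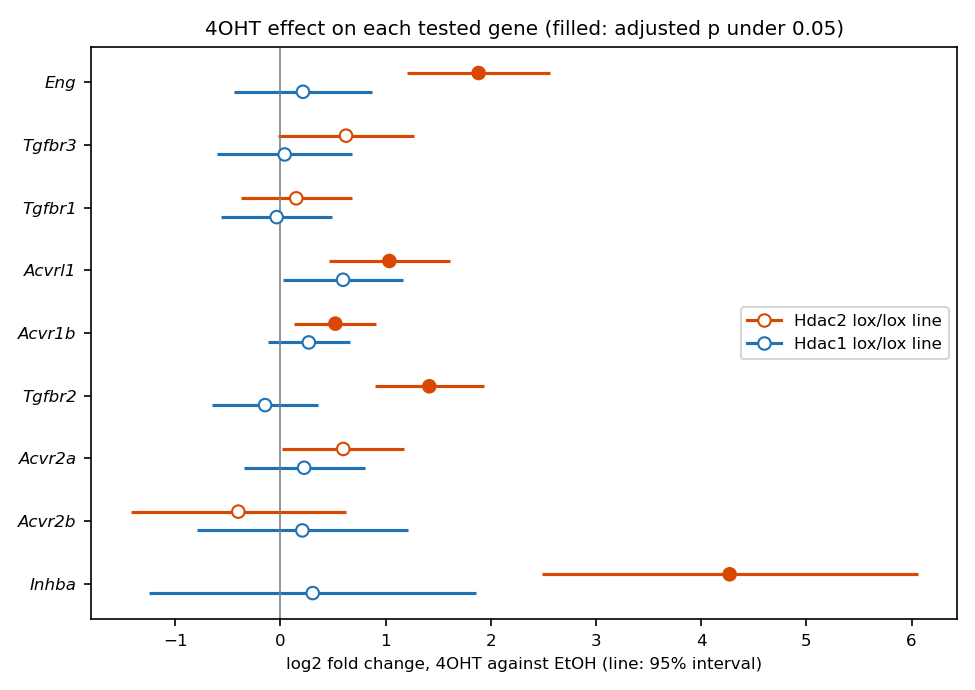
Log2 fold change of 4OHT against EtOH for the 9 tested genes in the Hdac2 line (orange) and the Hdac1 line (blue); points are fitted values, lines 95% intervals, and filled points passed at an adjusted p under 0.05. The filled points are those of Eng, Acvrl1, Acvr1b, Tgfbr2 and Inhba in the Hdac2 line, and no blue point is filled.

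The difference between the 4OHT effects of the lines was tested as an interaction, and 0 of the 9 genes passed, as against 0.0282% of all genes (4 of 14179). At an unadjusted p under 0.05 there were 3, against 28.0% of all genes. These were Tgfbr2 (difference in log2 fold change 1.56 ± 0.31 SE, adjusted p = 0.0719), Eng (1.67 ± 0.40 SE, adjusted p = 0.0833) and Inhba (3.96 ± 1.04 SE, adjusted p = 0.0875). The call turned on the processing. All 3 passed with DESeq2 (adjusted p = 0.000776 for Tgfbr2, 0.00284 for Eng and 0.012 for Inhba), as did 1781 of 14179 genes. They also passed without the filter on low counts, as did 1187 of 21564 genes. With each of the 8 libraries left out in turn, these differences kept their direction. For Acvrl1 the difference was 0.44 ± 0.35 SE (95% interval -0.37 to 1.25, adjusted p = 0.419), and the interval of Acvr1b ran from -0.30 to 0.80.

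The lines were also compared under each agent, in libraries that the comparisons above share. With EtOH, 0 of the 9 genes passed, against 9.33% of all genes. Both Hdac1 libraries lay above both Hdac2 libraries for 4 of them (30.3% of all genes) and below for Acvrl1 (29.9%). Acvrl1 came nearest, lower in the Hdac1 line (log2 fold change -0.92 ± 0.25 SE, adjusted p = 0.0549). It passed with DESeq2 (adjusted p = 0.00804), as did 2801 of 14179 genes, and with no filter, as did 2064 of 21564. With each of the 8 libraries left out in turn, the log2 fold change of Acvrl1 ran from -1.02 to -0.83. Eng was the other way, 1.65-fold higher in the Hdac1 line with EtOH (log2 fold change 0.73 ± 0.29 SE, adjusted p = 0.125).

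With 4OHT, 2 of the 9 genes were lower in the Hdac1 line and 0 higher, where 8.02% of all genes passed and 3.75% passed as lower. The log2 fold change was -1.25 ± 0.22 SE for Tgfbr2 (adjusted p = 0.0249) and -1.37 ± 0.25 SE for Acvrl1 (adjusted p = 0.0265). Eng (-0.94 ± 0.29 SE, adjusted p = 0.0815) and Inhba (-2.30 ± 0.63 SE, adjusted p = 0.063) did not pass. Both did with DESeq2, where 2023 of 14179 genes passed. Levels in both Hdac1 libraries lay below both Hdac2 libraries for 7 of the 9 genes, against 30.7% of all genes. Neither call held when any of the 4 libraries with 4OHT was left out. With each of the 8 libraries left out in turn, the log2 fold change ran from -1.47 to -0.99 for Tgfbr2 and from -1.76 to -1.055 for Acvrl1.

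Set beside the endothelial markers, the genes fell into different patterns, a ratio chosen after the values were seen. Per 100 CPM of Cdh5, Eng stood at 32.2 and 30.8 CPM with EtOH and at 33.8 and 32.8 CPM with 4OHT in the Hdac2 line. It stood at 23.4 and 23.0 CPM with EtOH and at 22.5 and 22.3 CPM with 4OHT in the Hdac1 line. Within a line, the ratio of Eng to Cdh5 thus varied by less than the level of Eng itself, and the reason was not tested. Acvrl1 went from 24.7 and 23.2 CPM to 14.2 and 13.9 CPM per 100 CPM of Cdh5 in the Hdac2 line, Tgfbr1 from 17.2 and 23.1 to 6.94 and 5.90, and Tgfbr2 from 10.4 and 14.9 to 9.16 and 9.91. All 3 ratios were lower in the 4OHT libraries without overlap, as were those of Acvr1b, Acvr2a, Acvr2b and Tgfbr3. The ratio of Inhba was higher there without overlap, and that of Inhbb overlapped. Cdh5 itself stood at 786 and 745 CPM with EtOH and at 2340 and 3030 CPM with 4OHT in that line. A gene with a smaller rise therefore has a lower ratio to it. Of the 12 endothelial markers 7 passed as higher and 0 as lower, but Cldn5 stood at 92.5 and 107 CPM with EtOH and at 31.9 and 56.7 CPM with 4OHT. The choice of reference thus changes the ratios. Per 100 CPM of all 12 endothelial markers, Eng was 7.80 and 6.76 CPM with EtOH and 11.8 and 11.2 CPM with 4OHT in the Hdac2 line, which did not overlap. On that reference Acvrl1 was 5.99 and 5.08 CPM with EtOH and 4.96 and 4.75 CPM with 4OHT, a smaller difference than on Cdh5. Tgfbr1 was 4.16 and 5.06 CPM against 2.42 and 2.02 CPM. Tgfbr2 turned, with means of 2.90 CPM with EtOH and 3.29 CPM with 4OHT, and its libraries overlapped (2.52 and 3.27 against 3.19 and 3.40 CPM).

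Across the 8 libraries, the genes whose log2(CPM + 1) was most like that of Eng by Pearson's r, among 9912 compared, were Plekhg2 (r = 0.995), Tbx3 (0.995), Gab2 (0.994), Fam21 (0.993) and Actn4 (0.993). Those most like Tgfbr2 were Acer2 (0.992), Prex2 (0.986), Prr14 (0.986), Limch1 (0.982) and Akr1c13 (0.974). The libraries share their groups, so these correlations describe the order of levels and carry no p. Of the other receptor genes, Acvr1b was nearest to Eng, at r = 0.93 and rank 544, and Tgfbr2 ranked 1435 with r = 0.85. Acvr2b had r = -0.01 with Eng.

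The other genes of the pathway were read from 6 lists, with counts for all and values for those with the smallest adjusted p. In the Hdac2 line 5 of 12 tested genes for TGF-β ligands and their activation rose and 0 fell. Ltbp1, which anchors latent TGF-β in the matrix, went from 8.98 ± 0.954 to 73.9 ± 8.57 CPM (SD, n = 2; log2 fold change 3.04 ± 0.26 SE, adjusted p = 0.00413). Thbs1, thrombospondin 1, an activator of latent TGF-β, went from 135 ± 43.1 to 1303 ± 219 CPM (adjusted p = 0.0117). Ltbp3 rose by 2.04 and Tgfb2, the TGF-β2 ligand, by 1.27 on the log2 scale (adjusted p = 0.00989 and 0.014). The list's median log2 fold change was 1.21, beside -0.02 over all genes.

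Among 6 tested genes for other activin-class ligands and antagonists, 3 rose and 1 fell. Gdf11, a ligand of the activin type II receptors, rose by 2.01 on the log2 scale, Fstl1 by 1.20 and Fstl3, a secreted activin inhibitor, by 1.66. Bambi, a pseudoreceptor that blocks TGF-β signalling, fell by 1.15 on the log2 scale (adjusted p = 0.0182), from 122 ± 14.3 to 54.7 ± 3.95 CPM (SD, n = 2). Of 3 other tested receptors of the family, Acvr1, the type I receptor ALK2, rose by 1.33 and Bmpr2, a type II receptor that also partners ALK1, by 1.92 on the log2 scale. Bmpr1a did not pass (0.68 ± 0.25 SE, adjusted p = 0.0689).

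Of 18 Smads and their regulators, 5 rose and 1 fell in the Hdac2 line, and the median log2 fold change was 0.69. Smad1 rose by 0.92 and the inhibitory Smad7 by 1.53 on the log2 scale, as did Smurf1, a ubiquitin ligase of Smads and receptors, by 1.52, while the co-repressor Tgif2 fell by 0.61 on the log2 scale. Of 20 genes known to respond to TGF-β, 10 rose and 0 fell (median 1.33). Timp3, a metalloproteinase inhibitor, went from 215 ± 17.8 to 907 ± 80.3 CPM and Fn1, fibronectin, from 2618 ± 110 to 7597 ± 432 CPM (SD, n = 2; adjusted p = 0.00413 and 0.00868). Col3a1 and Acta2 rose by 2.70 and 1.55 on the log2 scale, and Acta2 is also among the smooth muscle markers. Of 14 genes known to respond to ALK1 or BMP in endothelium, 5 rose and 0 fell (median 0.51). Gja5, connexin 40, an arterial gene, rose by 4.89, Atoh8 by 1.72, Msx1 by 1.69 and Stab1 by 1.67 on the log2 scale. Several genes stand in more than 1 list. The shares of genes that passed are to be read beside the 18.9% of all genes that passed as higher and the 17.2% that passed as lower. The lists were chosen with earlier results of these data known, so these shares are a description and not an independent test.

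In the Hdac1 line 0 genes of any of the 6 lists passed, where 0 of all 14179 genes did. The nearest was Timp3 (0.70 ± 0.19 SE, adjusted p = 0.712). Id1, a target of Smad1 and Smad5, followed (0.60 ± 0.20 SE, adjusted p = 0.727). Acvr1 came next (0.60 ± 0.24 SE, adjusted p = 0.733), tied at that adjusted p with Lrrc32, Tgfb2, Bhlhe40, Cdkn1a and Gja4. Of these, Gja4 was lower with 4OHT and the others higher. List medians ran from -0.29 for the genes that respond to ALK1 or BMP to 0.50 for those that respond to TGF-β, beside -0.02 over all genes.

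**Figure D4:**
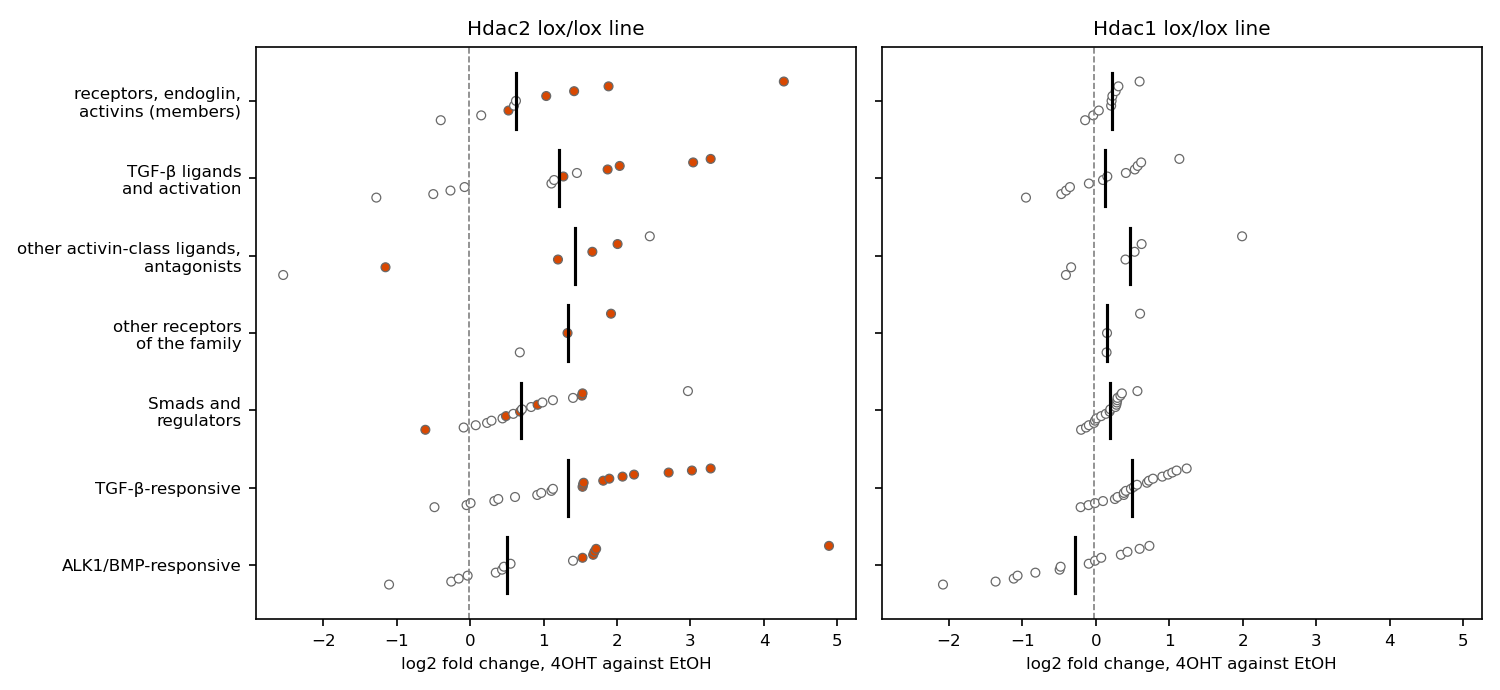
Log2 fold change of 4OHT against EtOH in the Hdac2 line (left) and the Hdac1 line (right), 1 point per tested gene, for the 9 receptor and ligand genes and the 6 lists of pathway genes. Filled points passed at an adjusted p under 0.05, solid bars are list medians and the dashed line is the median of all genes tested; the 10 filled points of the genes that respond to TGF-β all lie to the right, and no point is filled in the Hdac1 line.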

How the data were processed

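The authors deposited raw read counts, whole numbers for 41128 genes in 8 libraries without normalization, and each column was matched to a sample by its description. Libraries were prepared from 200 ng of total RNA with a kit that keeps strand (Agilent), amplified over 15 cycles, per the labels' protocols. The submitters' processing notes name, without roles, build mm10, edgeR 3.8.5, R 3.1.0, SAMtools 0.1.19, Bowtie2 2.2.1 and bcl2fastq 2.17.1.14. Not given in the sources used here are the counting program, the annotation and the strand setting.

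Counts were filtered with filterByExpr (14179 genes with 99.93% of counts), scaled by TMM and modelled in edgeR 4.0.16 (R 4.3.3) with 1 mean for each group of the 8 libraries. The quasi-likelihood test was used, with Benjamini-Hochberg adjustment over all genes tested at 0.05. SE are from the F statistic. DESeq2 1.42.0, limma 3.58.1 voom, other scalings and filters, the groups compared alone, a replicate block and leaving out each library were alternatives. Shares were compared by an exact permutation test. Lengths are merged exons of GENCODE M21 (GRCm38), where 6 of the 10 genes have the same start and end as in the deposited table. Promoter windows are RefSeq's. Scripts were tested on simulated counts with known changes in the Hdac2 line with 4OHT. The test called 21 of 100 genes changed 2-fold and 76 of 100 changed 4-fold, with 8 false calls. The changed genes were a far smaller share of the 14179 than the 36.1% that passed in the Hdac2 line. Adjusted p depends on that share, so these rates do not give the part of real changes found there. A gene that did not pass may still differ.

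All 10 genes are named in every comparison, with Hdac1 and Hdac2, for each 4OHT comparison up to 4 genes per pathway list by smallest adjusted p, and the 5 genes most like Eng and Tgfbr2 (mean CPM of at least 5). Ddx3y, Cdh5, other markers and overlapping genes were named after their values were seen. The genes and lists were chosen with earlier results of these data known.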

Additional observations from a re-analysis of the deposited data

How the results depend on the processing

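Replicate numbers are in the labels without a shared origin, and 2 pairs per line cannot show a pairing. With the replicate number as a block, 4 of the 9 genes passed in the Hdac2 line (3624 of all genes), Acvr1b being the one lost (adjusted p = 0.0773), 0 in the Hdac1 line, 0 for the difference between the lines (0 of all genes), 0 between lines with EtOH (184 of all genes) and 1, Tgfbr2, between lines with 4OHT (223 of all genes). With the block crossed in the Hdac1 line, chosen after seeing the data, 0 of the 9 and 858 of all genes passed there.

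Over 45 gene results, 672 of 756 values under alternatives kept their direction and side of the threshold, 35 lost the call, 27 gained it and 22 turned direction, 20 of these with a library left out; none of those that turned had passed the test. Of the other 2, Tgfbr3 in the Hdac1 line turned to -0.0065 with no scaling beyond library size and Acvr1b between lines with EtOH to -0.0038 with upper quartile scaling. Only a result that had passed could lose its call. These were 5 in the Hdac2 line and 2 between lines with 4OHT, each with 17 alternatives. DESeq2 called 3 of the 9 for the difference between lines (1781 of all genes), 1 between lines with EtOH (2801), 4 with 4OHT (2023) and 32 of all genes in the Hdac1 line. With no filter on low counts these were 3 (1187), 1 (2064), 4 (1805) and 4 of all genes. For the difference, limma-voom called 1 of all genes and no scaling 11, and the EtOH libraries fitted alone gave 141 between lines. Upper quartile scaling moved the median of all genes in the Hdac2 line to -0.15 and no scaling to -0.14. By the longest transcript the Acvr2b share in the Hdac2 line fell by 7.22 percentage points with 4OHT rather than 6.05. The cause of these differences was not tested.

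With each of the 8 libraries left out in turn, 0 to 6 of the 9 genes passed in the Hdac2 line (0 to 6422 of all genes), 0 in the Hdac1 line, 0 to 3 for the difference (0 to 3740), 0 to 2 between lines with EtOH (1 to 3871) and 0 to 4 with 4OHT (0 to 2276). Log2 fold changes that turned in the Hdac1 line ran from -0.10 to 0.60 for Eng, -0.063 to 0.52 for Acvr2a, -0.29 to 0.98 for Acvr2b, -0.29 to 0.19 for Tgfbr1 and -0.11 to 0.18 for Tgfbr3. In the Hdac2 line that of Tgfbr1 ran from -0.014 to 0.34, and its difference between lines from -0.032 to 0.44. Between lines with EtOH they ran from -0.090 to 0.24 for Acvr1b, -0.46 to 0.098 for Acvr2a, -1.13 to 0.14 for Acvr2b and -0.37 to 0.036 for Tgfbr1, and with 4OHT from -0.13 to 0.57 for Acvr2b and -0.67 to 0.18 for Tgfbr3. Depth limits Inhba, with 1 to 17 counts in 6 of the libraries, and Inhbb.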
